A study of Homo sapiens with 14 samples.

Results

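The E2F family of transcription factors and its dimerization partners were examined in lung adenocarcinoma (LUAD) cells treated with a pan-aurora kinase inhibitor. The family was taken as the genes E2F1 to E2F8, TFDP1 and TFDP2, matched by gene symbol to the count tables of both cell lines. All 10 members were found among the 26732 genes listed in both tables, and all 10 passed the filter on low counts in each line.

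The samples were A549 and H1792 cells, both established human LUAD lines, treated for 48 h with 0.1 µM AMG900, which inhibits the aurora kinases, or with the solvent DMSO alone. RNA was sequenced in bulk from 4 DMSO and 4 AMG900 libraries of A549 and from 3 DMSO and 3 AMG900 libraries of H1792. A549 carries an LKB1 nonsense mutation, as the study describes it, and the labels name no engineered change in either line. A549 was grown in DMEM and H1792 in RPMI 1640, so line, medium and count table cannot be told apart. The protocol speaks of replicate dishes, but no label ties a library to an independent experiment. The p-values therefore measure the spread between these libraries, which may be technical. In bulk RNA, fewer cells expressing a gene and less RNA per cell cannot be told apart.

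E2F proteins bind the promoters of genes for DNA replication and cell cycle entry, as dimers with a DP protein in the case of E2F1 to E2F6. In resting cells E2F1 to E2F5 are held by the retinoblastoma (RB) pocket proteins, and phosphorylation of these by cyclin-dependent kinases frees the activators E2F1, E2F2 and E2F3. E2F4 and E2F5 act mainly as repressors with pocket proteins, E2F6 represses within a Polycomb complex, and E2F7 and E2F8 are atypical repressors that bind DNA without a DP partner and are themselves E2F targets.

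Libraries held between 4254644 and 18962883 counts in A549 and between 42760874 and 79902934 in H1792. The shallowest was DMSO library 1 of A549, which also differed more from its replicates than they did among themselves, and without it the same number of members, 7, was called in that line. DMSO library 1 of H1792 stood apart too, with a chi-square per gene of 48.3 and 22.7 against DMSO libraries 2 and 3. Between those 2 libraries it was 14.8. Without DMSO library 1 of H1792, 3047 genes were called higher and 3656 lower in that line, against 2439 and 2827 with all libraries. The epithelial keratins KRT7, KRT8 and KRT18 were at 251.9 CPM (read counts scaled to library size) or more in all libraries of both lines. The most abundant, KRT7, was at 900.4 to 5558 CPM. KRT19 was lower, at 19.7 to 88.48 CPM in A549 and 5.917 to 10.47 CPM in H1792. CDH1, the gene of E-cadherin, was at 14.85 CPM or more in A549 but at only 0.5837 to 1.067 CPM in H1792. EPCAM was below 1 CPM in all A549 libraries, and 4 of 5 lung alveolar markers, NKX2-1 included, were below 1 CPM in all libraries of both lines. Of 9 markers of other cell types, 7 were below 1 CPM in every A549 library, whereas 5 were at 1 CPM or more in every H1792 library. The summed level of those 9 was 3.68 to 7.83 CPM with DMSO and 11.4 to 12.8 CPM with AMG900 in A549, and 50.4 to 66.5 against 47.4 to 50.2 CPM in H1792. Their part in the results was not tested.

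The promoters show how the classical E2F site is spread over the family. E2F5 and E2F8 had no promoter window in the source used. For the other 8 members the window ran from 250 bases before to 50 bases after the start (RefSeq, GRCh38.p14), with 11 windows in all. It was searched on both strands for the letters TTTCCCGC, TTTCGCGC, TTTGCCGC and TTTGGCGC. TTTCGCGC can overlap its own reverse complement, although no matches overlapped in the members, and 3.31% of the 35116 windows in the table held at least 1 of them. A match was found in 4 of the 11 windows, from E2F1, E2F2, E2F3 and TFDP1. The 150 bases before the start, 5′ to 3′ on the gene's strand, are shown for these 4 and for E2F4 and E2F7, which held no match. Capitals mark the matches.
E2F1, chr20:33686386-33686535, minus strand: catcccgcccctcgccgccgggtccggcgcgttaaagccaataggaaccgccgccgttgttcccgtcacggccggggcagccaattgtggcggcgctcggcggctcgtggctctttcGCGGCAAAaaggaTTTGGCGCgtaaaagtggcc
E2F2, chr1:23531234-23531383, minus strand: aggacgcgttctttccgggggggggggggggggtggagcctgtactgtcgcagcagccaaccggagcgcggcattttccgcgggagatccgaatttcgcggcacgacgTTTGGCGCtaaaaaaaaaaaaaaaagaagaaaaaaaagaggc
E2F3, chr6:20401729-20401878, plus strand: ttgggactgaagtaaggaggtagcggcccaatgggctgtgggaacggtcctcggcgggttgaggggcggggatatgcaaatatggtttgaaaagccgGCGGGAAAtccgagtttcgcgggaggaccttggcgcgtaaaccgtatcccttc
TFDP1, chr13:113584603-113584752, plus strand: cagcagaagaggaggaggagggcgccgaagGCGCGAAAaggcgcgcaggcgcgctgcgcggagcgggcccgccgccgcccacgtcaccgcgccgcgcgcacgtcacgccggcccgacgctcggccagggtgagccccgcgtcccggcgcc
E2F4, chr16:67192005-67192154, plus strand: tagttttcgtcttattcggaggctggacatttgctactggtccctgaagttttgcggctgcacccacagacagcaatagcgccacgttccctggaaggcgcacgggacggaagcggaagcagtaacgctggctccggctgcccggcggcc
E2F7, chr12:77065570-77065719, minus strand: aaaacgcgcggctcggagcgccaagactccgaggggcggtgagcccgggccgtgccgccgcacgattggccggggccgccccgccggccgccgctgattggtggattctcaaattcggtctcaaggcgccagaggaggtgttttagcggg

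E2F1 held 2 matches, GCGGCAAA at position -33 and TTTGGCGC at position -20, counted back from the start. The match lay at -42 in E2F2, at -53 in E2F3 and at -120 in TFDP1. The windows of E2F4, E2F6, E2F7 and TFDP2, and the other window of E2F3, held none of these letters, and a missing match says only that. Among the genes listed below as E2F targets of the G1/S transition, 15 of 39 windows held a match, and 14 of the 26 genes with a window had at least 1. No link between a match and a response was tested.

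AMG900 lowered 7 of the 10 members in A549 and 6 in H1792, and raised none in either line. The H1792 count was 3 without AMG900 library 1, AMG900 library 2 or DMSO library 3, and no member there fell at least 2-fold. Differentially expressed genes were called at an adjusted p under 0.01 in the edgeR quasi-likelihood test. Of all genes tested, 17.8% were called lower and 17.2% higher in A549 (35% in all), and 18.8% lower and 16.2% higher in H1792 (35.1% in all). Over the members the median log2 fold change stood at -0.94 for A549 and -0.42 for H1792, against -0.01 and 0.01 over all genes tested. DESeq2 likewise called 7 members lower in A549, 6 in H1792 and 0 higher in either, and 0 were higher in edgeR at an unadjusted p under 0.05.

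The steepest falls among the activators were those of E2F1 and E2F2 in A549. E2F1 (chromosome 20, 32263283 to 32274191 in GRCh37), the activator that also induces apoptosis genes, was at 61.2, 52.8, 56.9 and 63.3 CPM in the 4 A549 DMSO libraries. With AMG900 it stood at 8.85, 9.15, 8.84 and 9.63 CPM. The groups lay far apart, and the fall was 6.77-fold (log2 fold change -2.76, SE 0.10, edgeR adjusted p = 4.1e-11). In H1792 the E2F1 level was 140.1, 111 and 126 CPM with DMSO and 100.4, 96.9 and 93.3 CPM with AMG900. These groups did not overlap either, but the fall was only 1.30-fold (log2 fold change -0.38, SE 0.08, edgeR adjusted p = 0.0024). The H1792 call of E2F1 was lost without AMG900 library 2 or 3 or DMSO library 3 (adjusted p up to 0.017).

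E2F2 (chromosome 1, 23832930 to 23857725), an activator of the same class, had 8.64, 12.3, 11.03 and 10.8 CPM in A549 with DMSO. It had 0.188, 0.426, 0.596 and 0.597 CPM with AMG900, which were 2, 6, 11 and 9 counts. Every treated library was below every control, with a log2 fold change of -4.56 (SE 0.27, edgeR adjusted p = 6.0e-09). In H1792, E2F2 went from 17.5, 14.9 and 16.7 CPM to 10.8, 12.1 and 12.2 CPM, again without overlap (log2 fold change -0.49, SE 0.09, edgeR adjusted p = 0.0015), and this call was lost without AMG900 library 1 (adjusted p = 0.012).

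E2F3 (chromosome 6, 20402110 to 20493945), whose gene gives an activator and a shorter isoform that gene counts do not separate, fell by a like amount in both lines. Its A549 levels were 18.6, 21.3, 20.04 and 17.6 CPM with DMSO against 16.4, 16.2, 13.9 and 11.3 CPM with AMG900. The H1792 levels were 21.5, 24.9 and 22.6 CPM against 15.8, 14.9 and 17.2 CPM. The groups did not overlap in either line. The log2 fold change was -0.51 in A549 (SE 0.14, edgeR adjusted p = 0.0092) and -0.53 in H1792 (SE 0.09, edgeR adjusted p = 5.8e-04). The A549 call was held in 3 of 8 fits that left out a library and was lost without AMG900 library 2, 3 or 4 or DMSO library 2 or 3, with adjusted p up to 0.033. It was also lost when at least 10 counts were required in every library (adjusted p = 0.0115) and with a correction for GC content (log2 fold change -0.42, adjusted p = 0.017), while the H1792 call was held in all 6 such fits and with the correction.

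**Figure D1:**
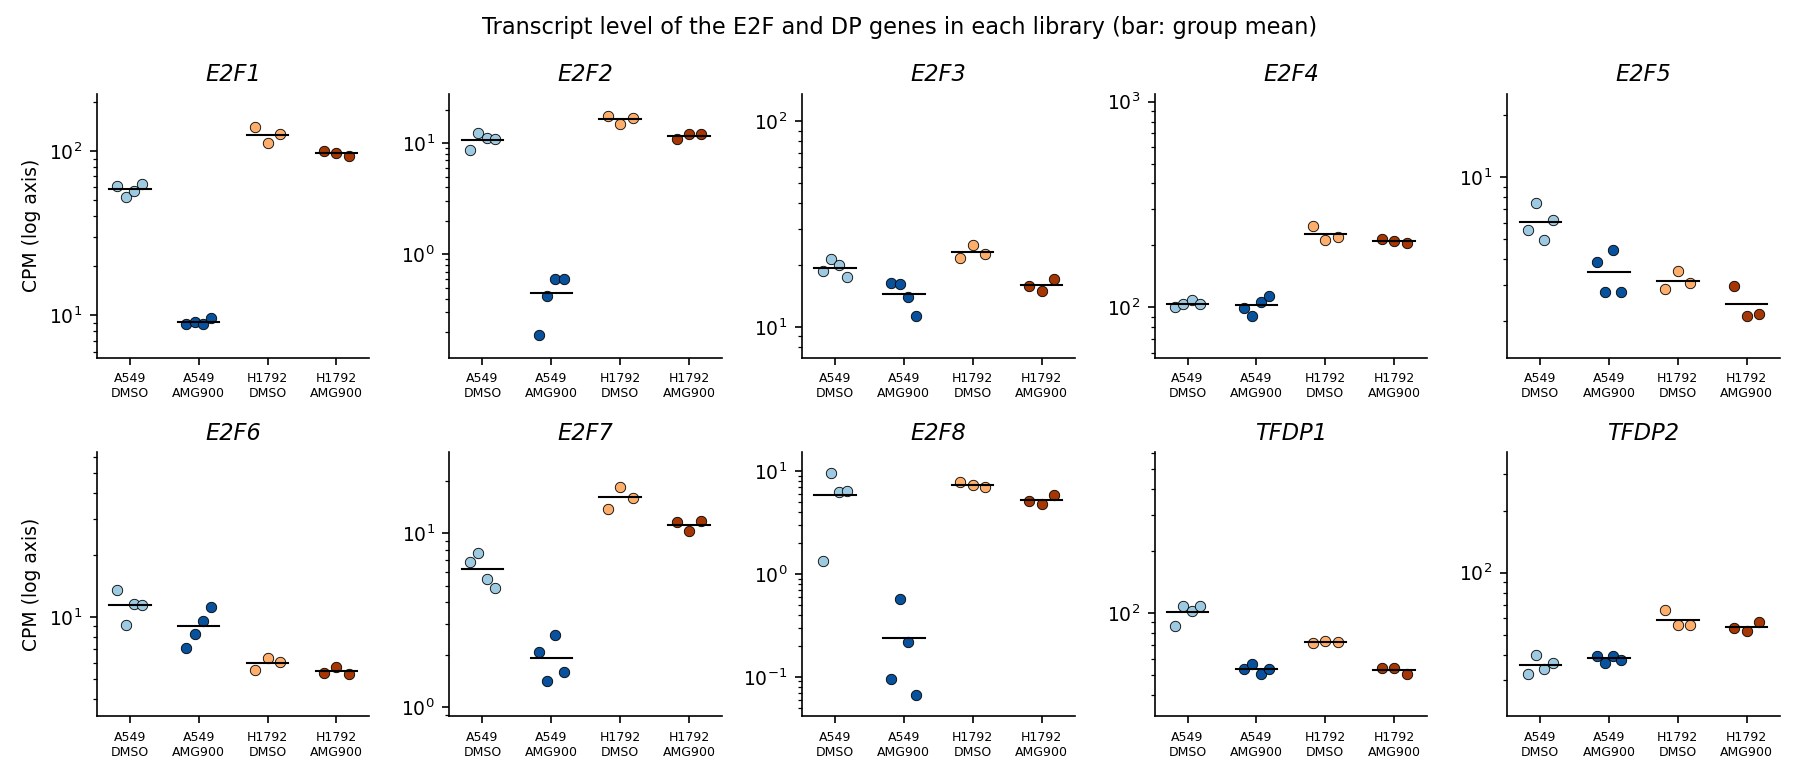
Level of each E2F and DP gene in CPM (log axis) in the 14 libraries, 1 point per library, with a bar at the group mean. E2F1 in A549 lies between 52.8 and 63.3 CPM with DMSO and between 8.84 and 9.63 CPM with AMG900, whereas the E2F4 groups overlap in both lines.

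Among the repressors, the atypical E2F7 and E2F8 were called lower in both lines, and E2F4 and E2F6 in neither. E2F4 (chromosome 16, 67226058 to 67232821), the main repressor partner of the pocket proteins in resting cells, was at 99.96, 103.8, 109 and 104.3 CPM in A549 with DMSO and at 99.4, 91.2, 106 and 113 CPM with AMG900. In H1792 it was at 248, 213 and 219.7 CPM against 214, 209.8 and 204.5 CPM. The groups overlapped in both lines. The log2 fold change was -0.11 in A549 (95% confidence interval -0.27 to 0.06, edgeR adjusted p = 0.27) and -0.12 in H1792 (-0.26 to 0.02, edgeR adjusted p = 0.13).
The E2F4 result depended on whether a correction for GC content was made. The longest E2F4 transcript is 59.3% G and C, and when each library was corrected for the GC content of its genes, E2F4 was called lower in A549 (log2 fold change -0.46, adjusted p = 5.9e-05) and in H1792 (-0.41, adjusted p = 1.5e-05).

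E2F5 (chromosome 8, 86089389 to 86129387), the other repressor that binds pocket proteins, had 5.54, 7.49, 4.97 and 6.22 CPM in A549 with DMSO and 3.86, 2.77, 4.45 and 2.79 CPM with AMG900. These groups did not overlap, and the fall passed the test (log2 fold change -0.88, SE 0.23, edgeR adjusted p = 0.0057). In H1792, with 2.87, 3.50 and 3.06 CPM against 2.96, 2.13 and 2.17 CPM, the groups overlapped and the test was not passed (log2 fold change -0.37, 95% confidence interval -0.76 to 0.03, edgeR adjusted p = 0.11). The A549 call was lost without AMG900 library 1, 2 or 4 or DMSO library 2 or 4 (adjusted p up to 0.024). The E2F5 transcript is 38.3% G and C, and with the GC correction the A549 value was -0.43 (adjusted p = 0.11) and the H1792 value 0.07 (adjusted p = 0.75). E2F5 also shares 991 exonic bases with RBIS (listed as C8orf59) on the opposite strand, and no source used here states whether strand was used in counting.

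E2F6 (chromosome 2, 11584501 to 11606303), the repressor that binds no pocket protein, was at 13.5, 9.12, 11.5 and 11.4 CPM in A549 with DMSO and at 7.06, 8.30, 9.54 and 11.2 CPM with AMG900. The groups overlapped (log2 fold change -0.39, 95% confidence interval -0.75 to -0.02, edgeR adjusted p = 0.075). In H1792 the levels ran from 5.54 to 6.34 CPM with DMSO and from 5.28 to 5.74 CPM with AMG900, also with overlap (log2 fold change -0.13, edgeR adjusted p = 0.33).

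E2F7 (chromosome 12, 77415028 to 77459349) fell 3.34-fold in A549. It was at 6.87, 7.66, 5.48 and 4.84 CPM with DMSO and at 2.07, 1.42, 2.60 and 1.59 CPM with AMG900, with no overlap (log2 fold change -1.74, SE 0.26, edgeR adjusted p = 8.8e-05). In H1792 it was at 13.9, 18.4 and 16.1 CPM against 11.6, 10.3 and 11.7 CPM, with no overlap and a smaller log2 fold change of -0.52 (SE 0.11, edgeR adjusted p = 0.0029). The H1792 call was lost without DMSO library 3 or any of the 3 AMG900 libraries (adjusted p up to 0.018), and with the GC correction its adjusted p was 0.0104.

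E2F8 (chromosome 11, 19245610 to 19263167) had the most negative log2 fold change of the members in A549. Its DMSO levels there were 1.33, 9.55, 6.20 and 6.34 CPM, the lowest of them from 6 counts in the shallow DMSO library 1. With AMG900 the levels were 0.0942, 0.568, 0.217 and 0.0664 CPM, from 1, 8, 4 and 1 counts. No treated library reached a control one (log2 fold change -4.70, SE 0.56, edgeR adjusted p = 9.5e-06), and without DMSO library 1 the value was -4.96. With so few counts its size is loosely set (95% confidence interval -5.91 to -3.50). In H1792, E2F8 was at 7.76, 7.28 and 6.91 CPM against 5.05, 4.75 and 5.83 CPM, with no overlap (log2 fold change -0.49, SE 0.11, edgeR adjusted p = 0.0047). That call was lost without AMG900 library 1 or 2 or DMSO library 3 (adjusted p up to 0.027) and with the GC correction (adjusted p = 0.015).

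The DP partners differed from each other. TFDP1 (chromosome 13, 114239036 to 114295788), which encodes the widespread partner DP1, was at 86.0, 108, 102 and 108 CPM in A549 with DMSO and at 53.2, 56.3, 50.5 and 53.4 CPM with AMG900. In H1792 it was at 71.3, 72.8 and 72.2 CPM against 53.8, 54.1 and 50.6 CPM. Neither pair of groups overlapped. The log2 fold change was -1.005 in A549 (SE 0.09, edgeR adjusted p = 3.1e-07) and -0.45 in H1792 (SE 0.06, edgeR adjusted p = 1.0e-04), and both calls were held in every fit that left out a library and with the GC correction.
TFDP2 (chromosome 3, 141663270 to 141868386), the gene of the second partner DP2, lay between 32.1 and 39.7 CPM with DMSO and between 36.5 and 39.5 CPM with AMG900 in A549. In H1792 it lay between 55.5 and 65.8 CPM with DMSO and between 52.2 and 57.3 CPM with AMG900. The groups overlapped in both lines. Its log2 fold change was 0.02 in A549 (95% confidence interval -0.19 to 0.23, edgeR adjusted p = 0.88), a sign that turned with scaling by total counts and without AMG900 library 1 or DMSO library 1 or 3, and -0.12 in H1792 (-0.29 to 0.05, edgeR adjusted p = 0.21).

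Counted over the family, 7 members had AMG900 libraries that were all below the DMSO libraries in A549, where 18% of all genes tested did and 26% were all above. In H1792 6 members did, where 29.3% of all genes tested did and 30.3% were all above. The same 6 members, E2F1, E2F2, E2F3, E2F7, E2F8 and TFDP1, were called lower in both lines. E2F5 was called in A549 but not in H1792. E2F4, E2F6 and TFDP2 were called in neither.

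**Figure D2:**
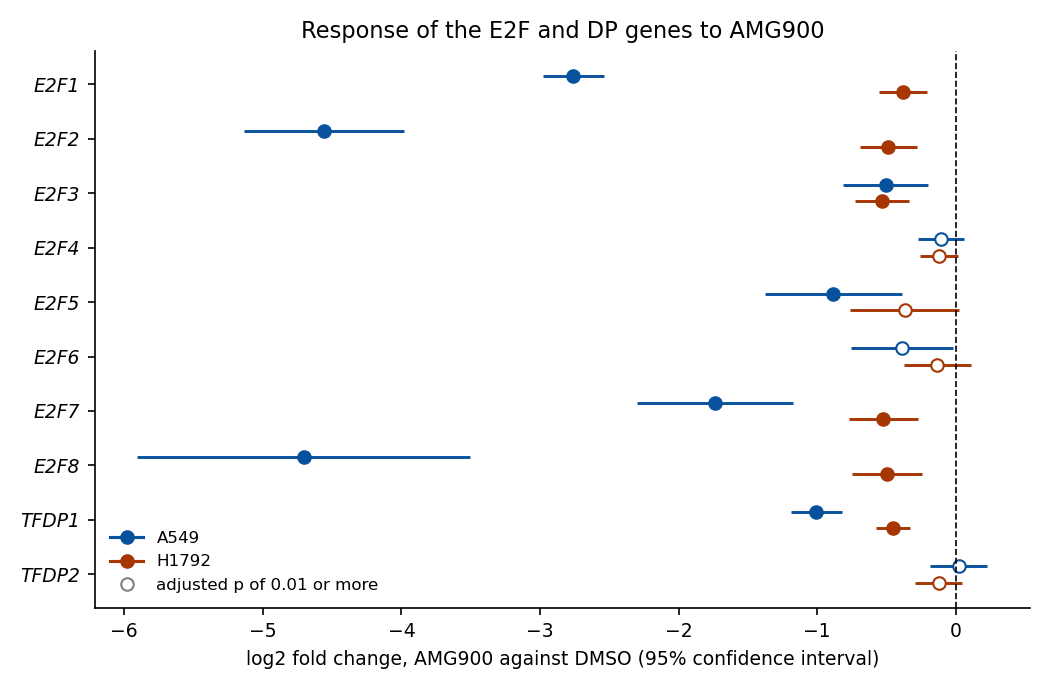
Log2 fold change of each E2F and DP gene with AMG900 against DMSO in A549 (blue) and H1792 (brown), with 95% confidence intervals; open points had an edgeR adjusted p of 0.01 or more. In A549 the values run from -4.70 for E2F8 to 0.02 for TFDP2, and in H1792 from -0.53 for E2F3 to -0.12 for E2F4.

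The question whether the response differed between the lines was put to the interaction of line and treatment in 1 fit over the 14 libraries. The fall was smaller in H1792 for 5 of the 10 members, where 5.37% of all genes tested had an interaction of that sign and 9.17% of the opposite one, and it was larger for none (0 also in DESeq2 and in edgeR at an unadjusted p under 0.05). The log2 difference of the 2 responses, H1792 minus A549, was 4.20 for E2F8 (SE 0.58, edgeR adjusted p = 2.6e-05), 4.01 for E2F2 (SE 0.27, edgeR adjusted p = 1.2e-09) and 2.30 for E2F1 (SE 0.13, edgeR adjusted p = 7.4e-11). It was 1.12 for E2F7 (SE 0.27, edgeR adjusted p = 0.0047) and 0.48 for TFDP1 (SE 0.11, edgeR adjusted p = 0.0031). E2F1, E2F2 and E2F8 kept the call in every one of the 14 fits that left out a library. E2F7 kept it in 7 and lost it without AMG900 library 2 or 4 or DMSO library 2 of A549 or without AMG900 library 1 or 3 or DMSO library 1 or 3 of H1792 (adjusted p up to 0.015). TFDP1 lost it without AMG900 library 1 or 2 or DMSO library 3 of H1792 (adjusted p up to 0.013).
For the other members a difference was not detected, and its interval was -0.47 to 0.27 for E2F3, -0.31 to 0.13 for E2F4, -0.18 to 1.07 for E2F5, -0.29 to 0.63 for E2F6 and -0.47 to 0.04 for TFDP2. Those intervals leave room for a difference in either direction.

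With DMSO alone, H1792 had higher levels of 5 members and lower levels of 3 than A549, against 34.2% and 31.9% of all genes tested (66.1% in all). Higher in H1792 were E2F7 (log2 difference 1.41, SE 0.18), E2F4 (1.12, SE 0.07), E2F1 (1.11, SE 0.08), TFDP2 (0.72, SE 0.09) and E2F2 (0.59, SE 0.14), with an edgeR adjusted p of 8.7e-04 or less for each. Lower were E2F5 (-0.95, SE 0.21), E2F6 (-0.91, SE 0.16) and TFDP1 (-0.49, SE 0.08), with an edgeR adjusted p of 4.7e-04 or less. E2F3 (0.25, edgeR adjusted p = 0.079) and E2F8 (0.22, edgeR adjusted p = 0.51) were not called. All 8 calls were held whichever library was left out, although the line cannot be told apart from the medium and the table it was counted in.

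Levels of different members were compared per kilobase of exon. On that scale E2F4 ranked first in all 4 groups, at 29.0 ± 1.04 CPM per kb (SD, n = 4) in A549 with DMSO and 28.5 ± 2.58 (n = 4) with AMG900, and at 63.1 ± 5.12 (n = 3) and 58.2 ± 1.31 (n = 3) in H1792. In A549 with DMSO, TFDP1 (26.9 ± 2.77) and E2F1 (21.8 ± 1.73) came next, and the libraries of E2F4 and TFDP1 overlapped, as did those of TFDP1 and E2F1. E2F3 followed at 3.74 ± 0.32, well separated, and below it TFDP2, E2F6, E2F2, E2F8, E2F5 and E2F7 each overlapped with the next in order. In A549 with AMG900, E2F1 stood at 3.39 ± 0.14 CPM per kb, with libraries that overlapped those of TFDP2 (3.22 ± 0.12), and E2F2 and E2F8 were last at 0.083 and 0.057. In H1792, E2F1 was second in both groups, at 46.8 ± 5.34 and 36.0 ± 1.33, followed by TFDP1, at 19.3 ± 0.20 and 14.1 ± 0.52, with no overlap between these neighbours. E2F5 was last in H1792, at 0.525 and 0.404 CPM per kb.

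Summed over the 10 members, the family's level was 92.6 ± 3.86 CPM per kb in A549 with DMSO and 55.4 ± 2.26 with AMG900 (SD, n = 4 each), and 148 ± 10.0 and 123 ± 2.61 in H1792 (n = 3 each). The activators E2F1 to E2F3 made up 29.7 ± 1.88% of that sum in A549 with DMSO and 11.3 ± 1.06% with AMG900, a change carried mostly by E2F1, which went from 23.5% to 6.13%. The share of E2F4 went from 31.3 ± 1.05% to 51.4 ± 2.63%. In H1792 the activators' share was 36.6 ± 1.28% with DMSO and 33.5 ± 0.16% with AMG900, and that of E2F4 42.7 ± 0.73% and 47.4 ± 0.12%. The atypical E2F7 and E2F8 together held 2.58% and 0.657% in A549, and 2.94% and 2.48% in H1792.

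The balance of activators against repressors, as the log2 ratio of summed CPM per kb of E2F1 to E2F3 over E2F4 to E2F8, was -0.36 ± 0.10 in A549 with DMSO and -2.34 ± 0.21 with AMG900 (SD, n = 4 each). The highest treated library (-2.10) lay below the lowest control (-0.46). In H1792 it was -0.36 ± 0.07 and -0.61 ± 0.01 (n = 3 each), with treated libraries from -0.62 to -0.60 below controls from -0.44 to -0.31. The shift was thus -1.98 in A549 and -0.25 in H1792, given as a description without a test. The sum is dominated by E2F1 on the activator side and E2F4 on the repressor side. Leaving out E2F1 changed the shifts to -0.84 and -0.37, and leaving out E2F4 to -1.15 in A549 and to 0.01, with the sign turned, in H1792.
By single genes the classes did not separate cleanly. All 3 activators were called lower in both lines, and of the 5 repressors E2F5, E2F7 and E2F8 were called lower in A549 and E2F7 and E2F8 in H1792. The activators had a median log2 fold change of -2.76 in A549 and the repressors one of -0.88. In H1792 these were -0.49 and -0.37.

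**Figure D3:**
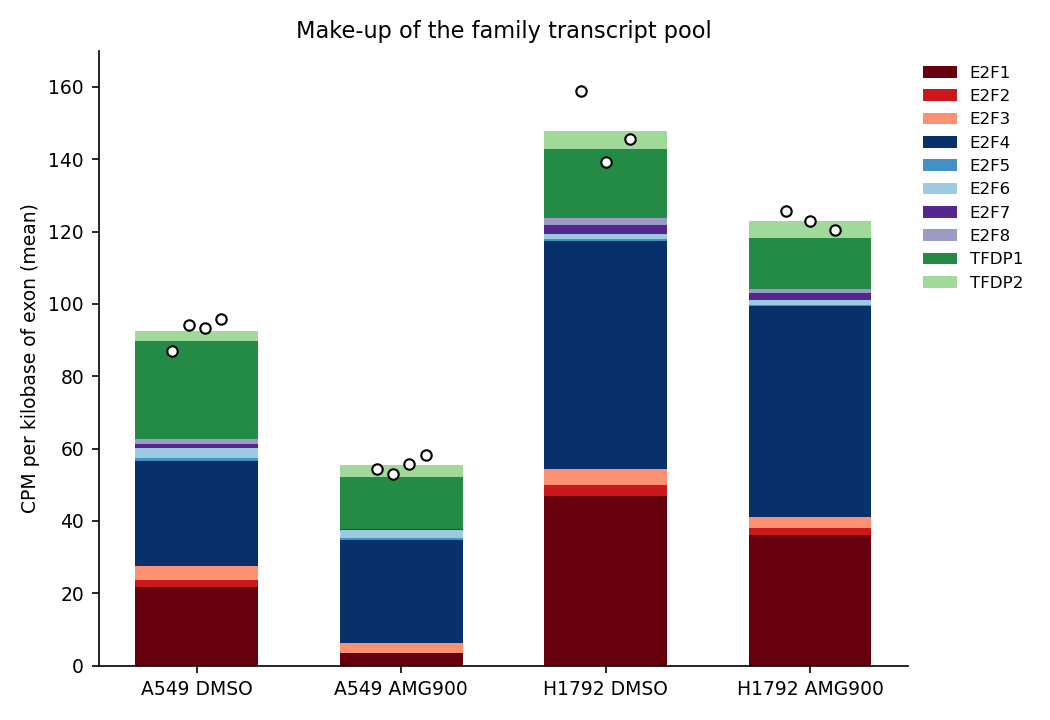
Mean level per kilobase of exon of each E2F and DP gene, stacked, in the 4 groups, with a circle at the summed level of each library. The A549 stack drops from 92.6 to 55.4 CPM per kb with AMG900 as E2F1 shrinks, while the E2F4 block is 29.0 and 28.5 CPM per kb.

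Upstream of the E2Fs, the pocket proteins and the kinases and inhibitors that act on them fell more often than they rose. Of 20 genes listed, 16 were tested in A549, where 2 rose and 9 fell, and 18 in H1792, where 2 rose and 8 fell (5 fell without AMG900 library 3). Over all genes tested, 17.2% rose and 17.8% fell in A549, and 16.2% rose and 18.8% fell in H1792. Only the falls were thus above their share. CDKN1A, which encodes the CDK inhibitor p21, was at 421 to 522 CPM with DMSO and 1648 to 1763 CPM with AMG900 in A549 (log2 fold change 1.73, edgeR adjusted p = 6.5e-11), and at 45.5 to 47.5 and 68.6 to 71.3 CPM in H1792 (0.60, edgeR adjusted p = 1.9e-05). CDKN1C, the gene of the CDK inhibitor p57, rose by 1.56 in A549 and 1.499 in H1792 on the log2 scale, from low mean levels of 1.10 and 1.35 CPM with DMSO. CDK2, the kinase of cyclins E and A, fell by 2.07 and 0.85.
The pocket proteins did not move alike. RBL1 (p107), itself an E2F target, fell by 2.10 in A549 (edgeR adjusted p = 3.7e-06) and by 0.45 in H1792 (edgeR adjusted p = 0.0049, and 0.36 with the GC correction). That H1792 call was held in 2 of 6 fits that left out a library and lost without AMG900 library 1 or 3 or DMSO library 2 or 3. RBL2 (p130), the pocket protein of resting cells, fell by 0.63 in A549 (edgeR adjusted p = 0.0015, and 0.016 with the GC correction) and had a log2 fold change of -0.20 in H1792 (edgeR adjusted p = 0.13). That H1792 value was called in 1 of 6 fits that left out a library (adjusted p = 0.0014 without DMSO library 1). With the GC correction it was -0.0045 (adjusted p = 0.967). RB1 ranged from 1.29 to 3.55 CPM with DMSO and from 1.03 to 1.53 CPM with AMG900 in A549 (log2 fold change -1.09, edgeR adjusted p = 0.016). It was called there in 1 of 8 fits that left out a library (adjusted p = 0.0041 without DMSO library 2, and up to 0.0595 in the others). With the GC correction its A549 value was -0.61 (adjusted p = 0.175). In H1792 it ranged from 2.27 to 3.76 CPM and from 0.857 to 1.00 CPM and fell by 1.57 (edgeR adjusted p = 3.8e-04).

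The E2F targets of the G1/S transition, genes of replication licensing, DNA synthesis and S-phase cyclins, fell nearly together in A549. Of 31 listed, 30 were tested there, 29 fell and none rose (0 also in DESeq2 and in edgeR at an unadjusted p under 0.05, in both lines). Their median log2 fold change stood at -2.40, against -0.01 over all genes tested, and the strongest falls were those of CCNA2 (cyclin A2, -4.63) and MCM10 (a replication initiation factor, -4.33). CCNA2 was left at a mean of 0.713 CPM in A549 with AMG900, near the floor. In H1792, 25 of 31 fell and none rose, with a median of -0.56 and the strongest falls for CCNA2 (-1.32) and RRM1 (a ribonucleotide reductase subunit, -0.98). Without AMG900 library 3 of H1792 the count there was 16, and only 1 gene fell at least 2-fold. The shares over all genes tested were 17.8% lower and 17.2% higher in A549, and 18.8% lower and 16.2% higher in H1792. The interaction was called for 26 of the 31 targets, each with the smaller fall in H1792. Among all genes tested, 5.37% had an interaction of that sign and 9.17% of the opposite one.

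The MuvB core with its partners B-MYB and FOXM1, which take over from E2F to drive genes of mitosis, had 5 of 7 lower and 1 higher in A549. Among all genes tested, 17.8% were lower and 17.2% higher in A549, and 18.8% lower and 16.2% higher in H1792. MYBL2, the gene of B-MYB, fell by 3.46 and FOXM1 by 3.01, whereas LIN37, a core subunit, rose by 0.69 on the log2 scale. In H1792, 4 of 7 fell and none rose in edgeR (1 in DESeq2 and 1 in edgeR at an unadjusted p under 0.05), led by LIN9 (-0.72) and RBBP4 (-0.53), both core subunits. Both of these calls were lost with the GC correction (LIN9 -0.45, adjusted p = 0.028, and RBBP4 -0.25, adjusted p = 0.012), that of LIN9 also without AMG900 library 3 and that of RBBP4 without AMG900 library 1. With the GC correction these counts were 3 lower and 0 higher in A549 and 2 lower in H1792. Without AMG900 library 1 or 2 of A549, 3 were lower, without DMSO library 2 of A549 none was higher, and without AMG900 library 1 of H1792, 2 were lower. Without DMSO library 1 of H1792 1 was higher there.
Of 10 genes of the Polycomb complex that holds E2F6, 9 were tested in A549, where 5 fell and none rose, and 10 in H1792, where 2 fell and none rose. Over all genes tested, 17.8% fell in A549 and 18.8% in H1792, so the H1792 count was near the share over all genes. In DESeq2, and in edgeR at an unadjusted p under 0.05, 0 rose in either line. The 2 that fell in H1792 were PCGF6, the complex's defining subunit (-1.08 in A549 and -1.09 in H1792), and MGA, a DNA-binding subunit (-1.04 and -0.64). The A549 call of PCGF6 was lost without AMG900 library 1, 2 or 3 or DMSO library 3 and with the GC correction (adjusted p = 0.048), and the H1792 call of MGA without AMG900 library 2 or 3 or DMSO library 3 and with the correction (adjusted p = 0.012). With the correction 4 fell and 1 rose in A549. In H1792 the count went to 1 without AMG900 library 2 or 3 or DMSO library 3, and to 4 without DMSO library 1.

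Apoptosis genes described as E2F1 targets had counts of calls near the shares over all genes tested. Those shares were 17.8% lower and 17.2% higher in A549, and 18.8% lower and 16.2% higher in H1792. Of 8 tested in A549, 2 rose and none fell (0 also in DESeq2 and in edgeR at an unadjusted p under 0.05). The 2 were BIK (log2 fold change 2.67) and BBC3 (1.41), both BH3-only genes. BIK was low in A549, at a mean of 0.469 CPM with DMSO and 3.55 CPM with AMG900. With at least 10 counts required in every library, 1 gene rose there. With the GC correction 4 rose, and without DMSO library 1, 1 fell. In H1792, BIK (1.201) and BBC3 (0.50) rose and PMAIP1, another BH3-only gene, fell (-0.45, a call lost with the GC correction at 0.07 and without AMG900 library 1, 2 or 3 or DMSO library 3). With the correction BBC3 in H1792 stood at 0.14 and was no longer called (adjusted p = 0.099). Without DMSO library 2 of H1792, 4 rose. BBC3 is also a p53 target and stands in the next list as well.
Of 22 genes known to be activated by p53, 18 rose and none fell in A549 in edgeR (1 fell in DESeq2 and 1 in edgeR at an unadjusted p under 0.05), with a median of 0.92 and the largest rises for MDM2, the p53 ubiquitin ligase (1.95), and FDXR, a mitochondrial reductase (1.80). Among all genes tested in A549, 17.2% rose and 17.8% fell. In H1792, of 21 tested, 7 rose and 3 fell, where 16.2% of all genes tested rose and 18.8% fell, with a median of 0.09. GDF15, a secreted stress factor, rose most (1.67), followed by CDKN1A, and RRM2B, a ribonucleotide reductase subunit (-1.76), and CCNG1, cyclin G1 (-1.39), fell most. With the GC correction the H1792 counts were 4 higher and 5 lower, and without AMG900 library 2, 4 were higher.

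**Figure D4:**
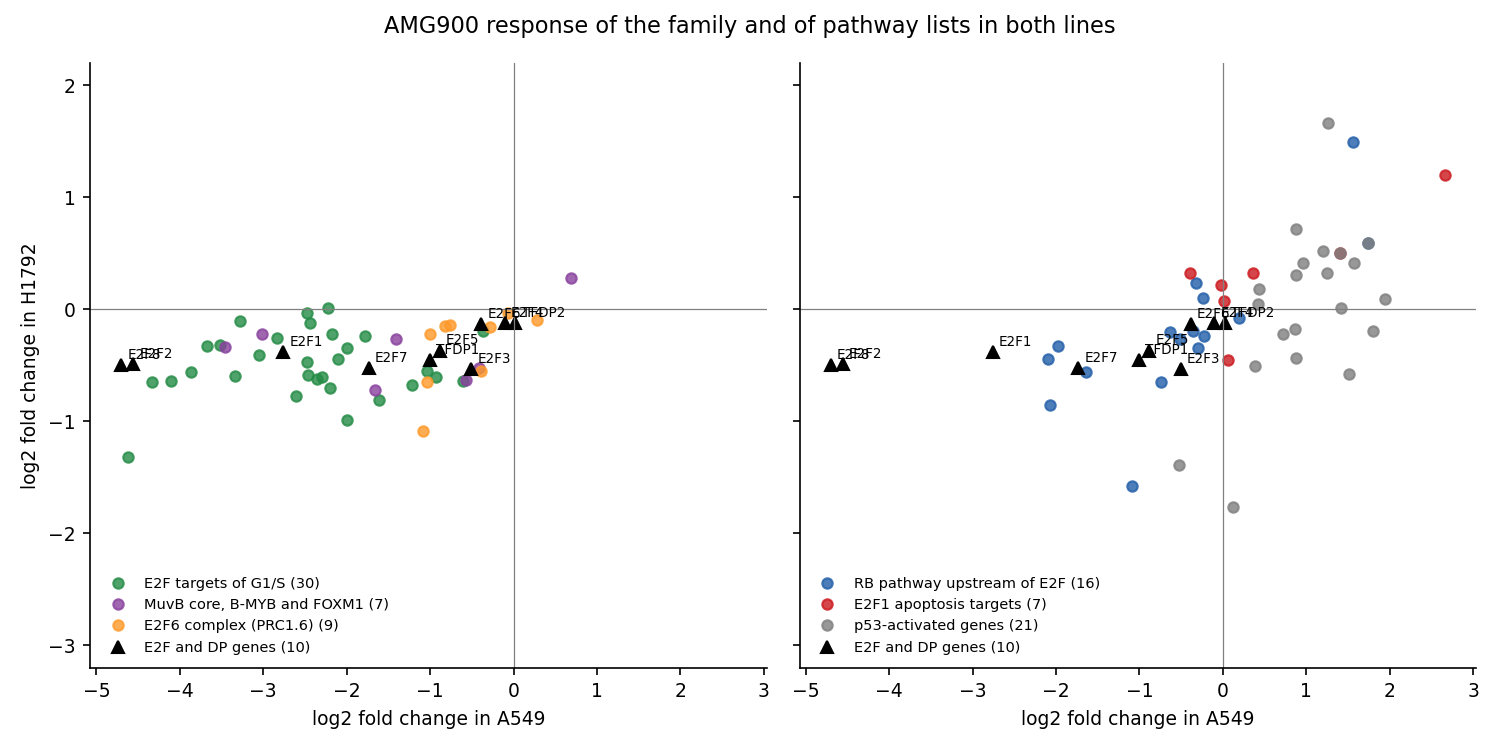
Log2 fold change with AMG900 in A549 (x axis) and H1792 (y axis) for the E2F and DP genes (triangles) and for genes of 6 pathway lists (circles), with the number of genes tested in both lines in the key. The G1/S targets spread from -4.63 to -0.36 in A549 and from -1.32 to 0.02 in H1792.

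The GC correction changed more calls among the members than any other tested choice of scaling did. It raised the size of the falls of E2F1, E2F2 and E2F4, whose longest transcripts are 61.6%, 57.4% and 59.3% G and C, and shrank those of E2F3, E2F5, E2F6, E2F7, E2F8 and TFDP1, all between 38.3% and 46.4%. E2F1 went to -3.17 in A549 and -0.70 in H1792, and E2F2 to -4.86 and -0.74. With it 6 members were called lower in A549 and 5 in H1792, with E2F4 gained in each, and all 5 interaction calls were held. The correction was fitted on transcripts of an annotation that may not be the one used to count. It also takes out any part of the AMG900 response that itself varied with GC content. Which of the values, with or without it, are nearer the real response was not tested.

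**Figure D5:**
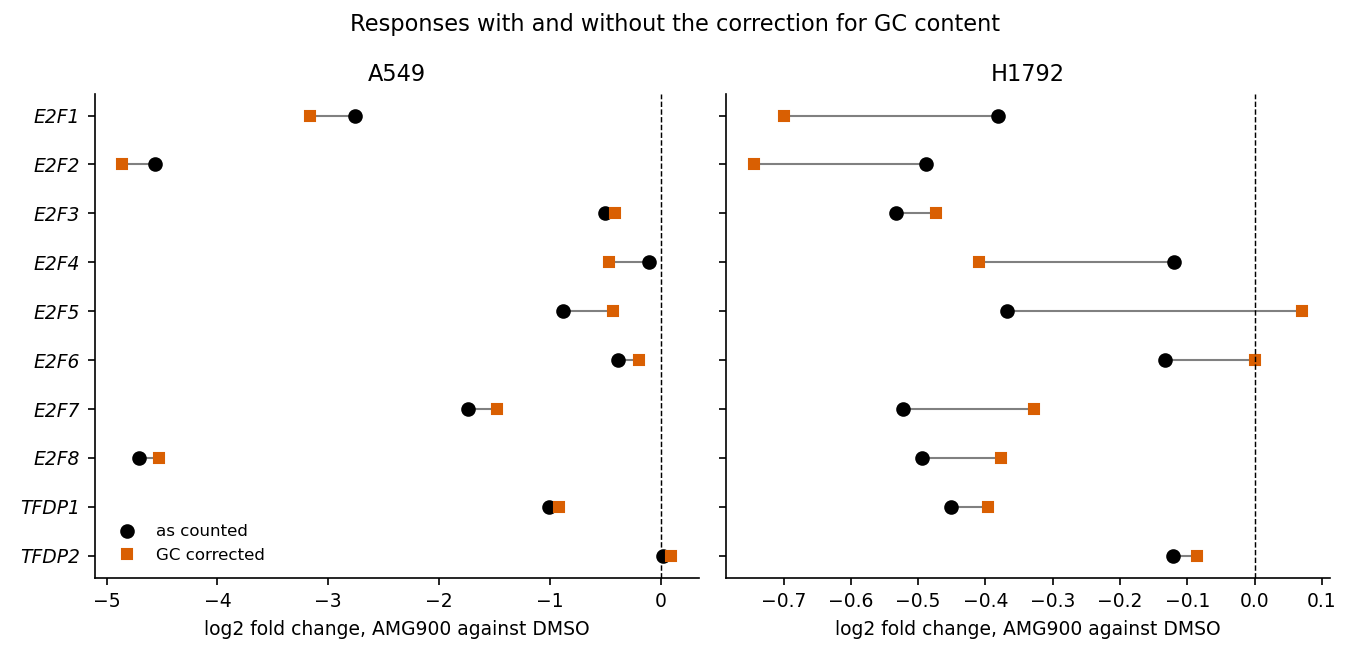
Log2 fold change of each E2F and DP gene with AMG900 in A549 (left) and H1792 (right, with its own axis), as counted (circles) and after a correction for GC content in each library (squares). E2F4 moves from -0.11 to -0.46 in A549 and from -0.12 to -0.41 in H1792, and E2F5 in H1792 crosses 0.

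For each member, the gene most like it was sought as the gene with the smallest root mean square difference of its centred log2 CPM over the 14 libraries, among 14759 genes. For E2F1 it was NCAPH, a condensin subunit, at 0.189 where the profile of E2F1 itself had a root mean square of 1.51. For E2F2 it was KIF18B, a mitotic kinesin (0.341 of 2.16), for E2F7 CDKN2C, a CDK inhibitor gene (0.269 of 1.195), and for E2F8 BUB1, a spindle checkpoint kinase, at a loose 0.658 of 2.18. The members that moved less had neighbours at smaller distances, but their own profiles were smaller as well. These were MTFR1 for E2F3 (0.115 of 0.293), FBXO31 for E2F4 (0.083 of 0.541), RARS for E2F5 (0.182 of 0.530), LOC146880 for E2F6 (0.128 of 0.456), IKBKAP for TFDP1 (0.101 of 0.403) and VPS26B for TFDP2 (0.089 of 0.324). Set against the member's own profile, the match of E2F3 was the loosest, and that of E2F5 was also looser than that of E2F8.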

How the data were processed

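The authors sequenced RNA on a NextSeq 500 and deposited raw counts per gene symbol, whole numbers without normalization, in a table per line. The labels name STAR, HTSeq and GRCh37 (hg19). Versions, annotation and strand setting are not given in the sources used here. Replicates were not pooled. Both tables list 26760 entries, and 28 date-named entries of the H1792 table (0.101% to 0.117% of its counts) were left out. The labels list 4 A549 libraries per treatment where the protocol gives a smaller number.

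The software was edgeR 4.0.16 in R 4.3.3, beside DESeq2 1.42.0 and limma 3.58.1. Genes passing filterByExpr were scaled by TMM and fitted with glmQLFit and glmQLFTest, within each line for AMG900 against DMSO and over all 14 libraries for the interaction and the lines. P-values were adjusted by Benjamini-Hochberg over all genes tested, with a threshold of 0.01. The biological coefficient of variation was 12.8% in A549, 9.60% in H1792 and 11.3% in the joint fit, and counting error adds to it for genes with few counts. CPM values use the TMM factors of the joint fit, and log2 CPM a prior count of 2. Positions, exon lengths and GC content (longest transcript) came from GENCODE for GRCh37. The GC correction was a natural spline with 5 degrees of freedom per library. Scripts were tested on simulated counts.

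The members and lists were chosen with earlier results of these data known. Named were all members, the 2 lowest and 2 highest called genes of each list in each line, the nearest gene of each member, and RB1, RBL1, RBL2 and CDKN1A. Alternatives were other scalings, filters, thresholds, a replicate block, GC correction, DESeq2 and leaving out each library. Those for the gene lists, and leaving out libraries for the activator ratio, were chosen after seeing the data. Processed pseudogenes exist for E2F3, E2F4, E2F6 and TFDP1 (10 in all), so their counts may be shared.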

Additional observations from a re-analysis of the deposited data

Results flagged for a closer look

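The AMG900 response differed between the lines by the interaction test for 5 members, always with the smaller fall in H1792. On the log2 scale the difference, H1792 minus A549, was 4.2 for E2F8, 4.01 for E2F2, 2.3 for E2F1, 1.12 for E2F7 and 0.48 for TFDP1. Among the pocket protein and CDK inhibitor genes it was 1.58 for RBL1 (edgeR adjusted p = 2.4e-04), which fell less in H1792, and -1.21 for CDKN1A (edgeR adjusted p = 1.2e-08), which rose less in H1792. For RB1 and RBL2 a difference was not detected (-0.56, edgeR adjusted p = 0.37, and 0.36, edgeR adjusted p = 0.16). The line cannot be told apart from its medium, table and depth in these values. In 22 sets of 4 A549 libraries examined, none held a value apart from the others by Dixon's criterion.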

How the results depend on the processing

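DESeq2, scaling by DESeq2 size factors or total counts, no filter on low counts and an FDR of 0.05 kept the 4 counts of members called within 1.5 times of those reported. With at least 10 counts in every library E2F2 and E2F8 dropped out and E2F3 in A549 lost its call (adjusted p = 0.0115), leaving 4 lower in A549 and 3 interactions. Requiring a 2-fold change left 0 lower in H1792 and, between the lines with DMSO, 3 higher and 0 lower. Leaving out 1 library gave 5 to 7 lower in A549, 3 to 6 lower in H1792 (3 without AMG900 library 1 or 2 or DMSO library 3) and 3 to 5 interactions (3 without AMG900 library 1 or DMSO library 3 of H1792). Apart from fewer libraries or genes, the cause was not tested.

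Values that changed sign were all uncalled but 1. For TFDP2 in A549 they were -0.057 with total counts and from -0.012 to 0.082 over the fits without a library. With the GC correction E2F5 (0.071), E2F6 (0.00040) and PMAIP1 (0.067, called before) turned in H1792. The E2F4 interaction was 0.0013 with total counts and 0.10 with the GC correction. The activator ratio in A549 shifted by -1.69 without length scaling, -0.84 without E2F1, -2.61 without E2F3 and -1.15 without E2F4, and in H1792 by -0.37 without E2F1 and 0.0078 without E2F4.

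Replicate numbers did not pair the libraries (same-number correlations of deviations from -0.060 to 0.043). A replicate block gave 6 lower in A549 (E2F5 at adjusted p = 0.018), 6 in H1792 and 3 interactions, without E2F7 (1.15, adjusted p = 0.014) and TFDP1 (0.47, adjusted p = 0.011).

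Scaling by total counts moved the median of all genes between the lines with DMSO from 0.04 to -0.07. Over all genes, interactions split into 793 higher and 1355 lower, 1012 and 1033 with DESeq2 size factors, 988 and 1047 with total counts, and 1330 and 1106 with the GC correction. Depth limits E2F2 and E2F8 most, at 1 to 11 counts per treated A549 library.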
